A study of Mus musculus with 2 samples.

Results

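The wounded Rectum cells are the cells that the authors named Rectum in their table of the wounded library, and the counts of these barcodes were taken from the unnormalized matrix. They are 397 of the 4147 cells with a name in that library, or 9.57%, and the library holds 17216 barcodes in all. In the normal library 63 of 939 named cells carry the same name.

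The study asked which cells at the junction between anal canal and rectum renew the epithelium and repair it after injury. Both libraries came from K17CreERT2;R26R GFP mice on the C57/BL6J background that had been given tamoxifen, so that cells using the Krt17 promoter switch on a green reporter for good. For the wounded library, mice of 2 to 4 months had rectal crypts near the transition zone taken off with EDTA and a mechanical wound, and their cells were collected 1 week later. The normal library had no wound. By the general methods for cell isolation, tissue of at least 5 mice was pooled, and live cells were sorted for Epcam and against CD45, CD11b, CD31 and PDGFRa. Each condition is therefore 1 library, its mice cannot be told apart, and no p-value can be given between conditions. All intervals in brackets are exact intervals at 95% and cover counting error only. The reporter sequence is in the reference of the normal library only, so traced cells were not counted.

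The wounded Rectum cells held 4110418 UMIs (counted molecules), with a median of 9991 UMIs per cell, a range of 508 to 33657, and a median of 2820 detected genes. The normal Rectum cells held 704191 UMIs, with a median of 10885 per cell. Mitochondrial genes took a median of 12.9% of the UMIs of a wounded Rectum cell, 9.26% of a normal Rectum cell and 8.16% of the 3750 other named wounded cells. Levels are CPM, UMI counts scaled to the same total in each group after summing over its cells. A gene with 0 UMIs was given 3 UMIs as a bound, which is 0.73 CPM in the wounded and 4.26 CPM in the normal Rectum cells. The libraries shared 1 barcode, and it was no Rectum cell. Doublets were not called. The wounded matrix was made with a later version of Cell Ranger and another gene reference than the normal one, and 30406 gene IDs are in both.

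The rectum is lined by a single layer of columnar cells folded into crypts. Stem cells at the crypt base, held there by Wnt signals, give rise to absorptive colonocytes, which move salt and water, and to goblet cells, which secrete the mucus that keeps bacteria off the tissue. At the anus this layer meets a stratified squamous epithelium that carries other keratins. After damage, intestinal epithelium is known to pass through a state marked by Ly6a (Sca-1) and other fetal or injury genes before the crypts return.

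Krt8, Muc13, Kcnq1 and Kcne3 mark this epithelium, and all of them were far above the other named wounded cells. Krt8 (ENSMUSG00000049382, chromosome 15, 101996698 to 102004482, minus strand, GENCODE vM21 on GRCm38), the type II keratin of simple epithelia, stood at 2386 CPM (2339 to 2434) in wounded Rectum cells. It was at 430.2 CPM in the cells named Hybrid, 131 in Suprabasal, 54.1 in Regeneration, 36.6 in Wound_Stress and 27.5 in Basal. Muc13 (ENSMUSG00000022824, chromosome 16, 33794037 to 33819934, plus strand), a transmembrane mucin of the apical surface, was at 653 CPM in wounded Rectum, 74.8 in Hybrid and between 8.36 and 15.2 CPM in the rest. The order of the summed levels was the same for both: Rectum, then Hybrid, then the stratified groups. The intervals of Rectum and Hybrid did not overlap. The Hybrid level is a sum over cells and gives no level per cell. By the limit on the rectum markers given below for barcodes, 38 of 316 Hybrid cells (12%) passed, against 349 of 397 Rectum cells (87.9%). The median Hybrid cell had 2390 UMIs against 9991, and depth was not matched for these shares.

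Kcnq1 (ENSMUSG00000009545, chromosome 7, 143106362 to 143427042, plus strand) and Kcne3 (ENSMUSG00000035165, chromosome 7, 100176502 to 100184869, plus strand) encode the pore and the regulatory subunit of the basolateral potassium channel that drives chloride secretion. Kcnq1 was at 37 CPM (31.3 to 43.4) in wounded Rectum and 2.7 CPM (0.735 to 6.91) in Hybrid, with 0 UMIs in Regeneration. Kcne3 was at 118 CPM (108 to 129.5) and 10.1 CPM (5.66 to 16.7), and at 1.04 CPM or less in the 4 other wounded groups. Those groups could not be put in order for either gene, since their intervals overlap. Over all other named wounded cells together, the log2 ratios were 4.83 (4.77 to 4.89) for Krt8, 5.49 (5.36 to 5.62) for Muc13, 6.80 (5.99 to 7.75) for Kcnq1 and 6.60 (6.17 to 7.06) for Kcne3. The cells were clustered on these genes, so this is a description of the name and not a test.

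After each cell was thinned to 2000 UMIs, leaving out 43 shallower wounded Rectum cells, 92.1% (88.8 to 94.7) held a UMI of Krt8 and 64.1% (58.9 to 69.1) one of Muc13. For Kcne3 and Kcnq1 the shares were 17.5% and 6.21%. In wounded Basal cells, which should lack them and had a median of 9075 UMIs, they were 3.37%, 1.24%, 0.177% and 0 of 564 cells, which still allows a small share. Without thinning, the shares in wounded Rectum were 96%, 89.9%, 37.5% and 22.2%. Krt8 was thus detected in nearly all of these cells and the channel genes in a minority. At the low levels of the channel genes a cell that expresses them can hold no UMI of them. The shares are therefore not counts of expressing cells.

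**Figure D1:**
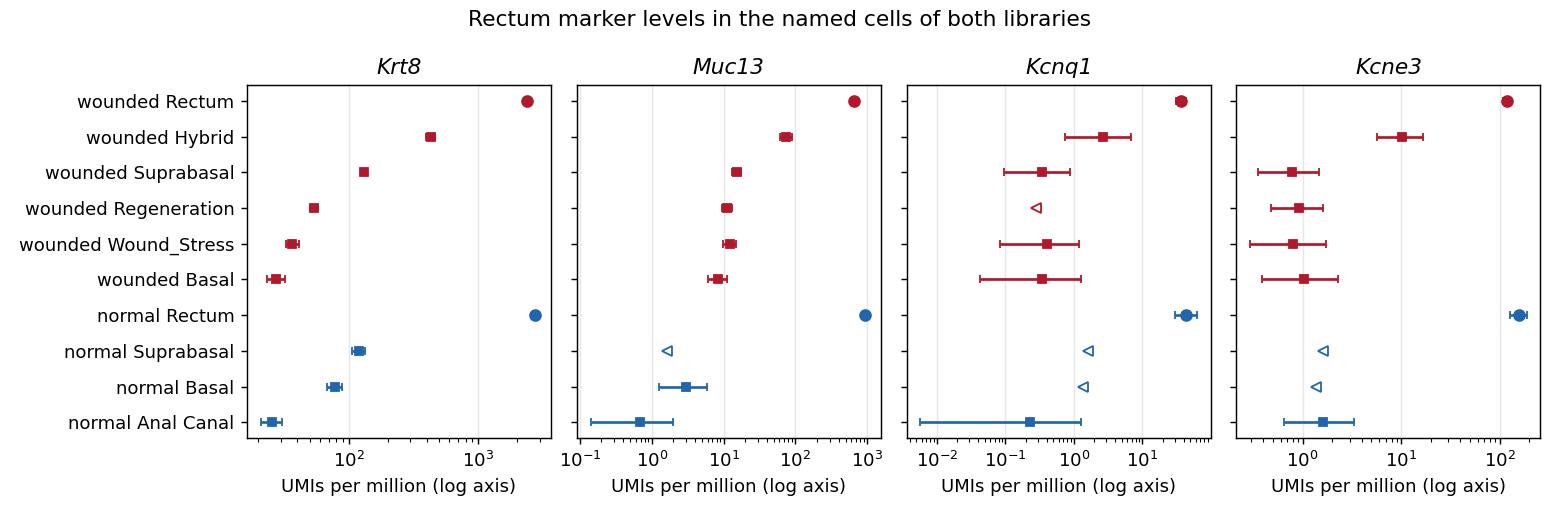
Levels of the 4 rectum markers in CPM (horizontal log axis of each panel) in each named group of the wounded (red) and normal (blue) library. Circles are Rectum cells, squares other names, bars exact Poisson intervals at 95%, and open triangles the upper limit where no UMI was found. Wounded and normal Rectum cells lie side by side at the right of each panel, with Hybrid next among the wounded groups.

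The bases before the RefSeq start sites of these markers are shown because they are the stretch where factors of the intestinal epithelium would be looked for, and 3 motifs were searched on both strands, TTTATG for caudal-type homeobox factors, CAAAGTCCA for HNF4 and AGATAA for GATA factors. Each run below is the 250 bases upstream of a start, 5′ to 3′ on the strand of the gene (GRCm38.p6), with matches in capitals. Krt8 at chr15:102004343-102004592 holds AGATAA, 239 bases before the start. The Muc13 window at chr16:33793787-33794036 holds TTTATG on the opposite strand, where it reads CATAAA, 180 bases before the start. A second Muc13 window at chr16:33794239-33794488 holds CAAAGTCCA on the opposite strand, which reads TGGACTTTG, 186 bases before the start. The 2 Kcne3 windows held none of the 3. No window is shown for Kcnq1.
Krt8: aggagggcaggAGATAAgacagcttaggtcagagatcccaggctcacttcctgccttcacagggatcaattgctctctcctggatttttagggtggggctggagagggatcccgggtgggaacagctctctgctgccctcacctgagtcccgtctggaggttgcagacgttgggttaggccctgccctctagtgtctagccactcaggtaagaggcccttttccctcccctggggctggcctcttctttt
Muc13 upstream start: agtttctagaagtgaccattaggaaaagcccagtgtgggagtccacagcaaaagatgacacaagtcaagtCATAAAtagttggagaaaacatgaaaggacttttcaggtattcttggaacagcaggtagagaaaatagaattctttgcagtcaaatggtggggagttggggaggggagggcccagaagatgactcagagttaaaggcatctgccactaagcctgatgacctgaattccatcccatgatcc
Muc13 downstream start: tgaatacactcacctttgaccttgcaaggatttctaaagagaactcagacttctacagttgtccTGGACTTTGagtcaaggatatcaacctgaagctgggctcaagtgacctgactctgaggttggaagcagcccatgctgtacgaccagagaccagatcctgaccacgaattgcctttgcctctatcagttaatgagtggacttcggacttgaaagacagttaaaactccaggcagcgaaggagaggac

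Among all 27025 genes of that table, 12.4% had a window with TTTATG, 0.451% one with CAAAGTCCA and 11.4% one with AGATAA. A match describes these letters only.

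Set against the other named wounded cells, the wounded Rectum cells were led by secreted products of goblet and deep crypt cells. Of 6203 genes with 20 CPM or more in either group, 1129 (18.2%) were 2-fold or more higher in Rectum and 676 (10.9%) were 2-fold or more lower. Of the 12 genes with the largest lower bound, Spink4 and Mptx1 were the most abundant. Spink4, a protease inhibitor of goblet cells, stood at 8252 CPM against 33.3 (log2 ratio 7.95, 7.87 to 8.04), and Mptx1, a mucosal pentraxin, at 6205 against 24.5 CPM (7.99, 7.89 to 8.08). Reg4 (1430.0 CPM, 8.13), a lectin of secretory cells, Retnlb (1304 CPM, 7.97), a bactericidal goblet product, and Lyz1 (154 CPM, 8.65), a lysozyme, were among them. So were Clps (357 CPM, 9.25), Klk1 (1198 CPM, 8.14), Ccl6 (657 CPM, 7.98) and Atoh1 (76.6 CPM, 8.75), the transcription factor that sets the secretory fate. Igkc, Igha and Jchain also qualified by the rule, but 1 cell held 5815 of the 5816 UMIs of Igkc, 1962 of 1964 of Igha and all 675 of Jchain. These are immunoglobulin and joining chains of antibody-secreting cells, and the same genes were at 0.611 CPM or less in the other wounded cells.

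Lists of columnar epithelium were higher in Rectum than in the other wounded cells, and lists of stratified epithelium lower. All 11 goblet genes that passed the filter were 2-fold or more higher (median log2 ratio 6.87, against 0.12 over all genes tested), as were 9 of 10 colonocyte genes (3.28) and 11 of 12 intestinal transcription factors (3.68). Of the ion and water transport genes 15 of 18 were higher, and of the junction genes 10 of 13. In contrast, all 8 stratified basal genes and all 9 suprabasal genes tested were lower (medians -3.73 and -3.67), with Krt14 at 340.4 against 4791 CPM and Krt5 at 81.3 against 1093 CPM. Of 18 immediate-early genes 14 were lower and 0 higher, with Jun at 791 against 1504 CPM and Fos at 401 against 1119 CPM. Of the 10 cycling genes 0 were past 2-fold, and their summed level was 691 against 738 CPM.

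Against the 316 Hybrid cells, the group nearest by the markers, 871 of 6598 genes (13.2%) were 2-fold or more higher in Rectum and 816 (12.4%) lower. All 10 enteroendocrine genes were lower in Rectum, at a summed 42.1 CPM against 21460.0 CPM. Pyy was the most abundant of them in Hybrid. How these UMIs were spread over the 316 cells was not counted, so the sum gives no level per Hybrid cell. The median Hybrid cell had 2390.0 UMIs against 9991.

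The wounded Rectum cells fell into groups with different leading genes. With the settings of the study (10 components, resolution 0.2, cell-cycle scores regressed), they split into 4 clusters of 132, 104, 93 and 68 cells, numbered here by size. At resolution 0.4 there were 5, since 23 cells left the first cluster, and there were 4 without the regression or with 20 components. The clusters differ in depth: the medians were 15078, 12890.0, 2690.0 and 3206 UMIs, and the first 2 hold 49.5% and 33.5% of all UMIs, so summed levels follow them. The genes that lead a cluster are given as a description, since the clusters were made from them.

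Within the first cluster, 109 cells were rich in Kcne3 and are called the Kcne3-rich cells. Over all other wounded Rectum cells they were led by Nxpe2, Trf, Kcne3, Cdc20, Defb45, Lipt2, Lgr5 and Cdkn3. Kcne3 reached 243 CPM, Kcnq1 73.7 CPM and Cftr, the apical chloride channel, 103 CPM, against 20.3, 7.98 and 12.3 CPM in the second cluster. Lgr5, the receptor that marks crypt stem cells, was at 41.6 CPM (32.2 to 52.9) here and 2.18 CPM (0.449 to 6.36) in the second cluster, and Smoc2 at 134 and 32.6 CPM. The 12 crypt stem genes summed to 708 CPM and the 12 cycling genes to 1010.0 CPM, each more than in any other cluster. The fourth cluster came next, with Kcne3 at 187, Lgr5 at 31.8 and the crypt stem genes at 668 CPM on 168 UMIs, above the 628 CPM of the whole first cluster. The channel subunits were thus highest in these sets of cells, while Krt8 was at 1200.0 CPM or more in each cluster and 1158 CPM in the 23 cells described next. No marker of the crypt stem list was among the 10 leading genes of the whole cluster, so it was given no cell type name.

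The 23 other cells of the first cluster carried genes of the stratified epithelium beside the rectum markers. Over the 109 they were led by Calm4, Krt1, Cst6, Krtdap, Stfa3, Calml3, Ndufa4l2 and Krt10. They held Krt14, the basal keratin, at 2115 CPM against 73.7 CPM, Krt1 at 1345 against 6.93 CPM and Krtdap at 1327 against 16.4 CPM. Krt8 was at 1158 CPM, Muc13 at 491 and Epcam at 988 CPM in the same cells, and goblet genes were present as well, with Spink4 at 3536 and Muc2 at 859 CPM. Krt17, the keratin of the transition zone and the source of the Cre promoter, was at 906 CPM here, 123 CPM in the fourth cluster and 31.5 to 34.6 CPM in the others. Few cells decide these values: 1 cell held 261 of 385 UMIs of Muc2 in the 23 cells (293 CPM without it), 160 of 406 of Krt17 (579 CPM without it) and 262 of 603 of Krt1 (796 CPM without it). Likewise 1 cell held 41.7% of the Krt1 UMIs of all wounded Rectum cells, 30.6% of Krtdap and 86.4% of Cst6. The median of the 23 cells was 19848 UMIs, the highest of any subset, with 16.1% mitochondrial. Doublets of a rectal and a squamous cell cannot be told apart from single cells that express both.

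The second cluster, of 104 cells, was goblet-like. The 12 goblet genes summed to 46370.0 CPM there, against 1542 CPM in the Kcne3-rich cells and 5030.0 CPM in the third cluster. Spink4 alone stood at 22580.0 CPM, Agr2, a disulfide isomerase needed for mucin folding, at 8594, Tff3, a trefoil peptide of mucus, at 5484, and Muc2, the gel-forming mucin, at 2579 CPM. Atoh1 was at 198 CPM against 2.52 CPM in the Kcne3-rich cells. Products of the deep crypt were at their highest here too: Retnlb at 3381 CPM, Lyz1 at 445 CPM and Ang4, an antimicrobial ribonuclease, at 247 CPM. Lyz1 was found in 44 of the 397 cells and Ang4 in 17, with 33.1% of its UMIs in 1 cell. By the rule, the leading genes were Igkc, Igha, Jchain, Ang4, Psca, Lyz1, Iglv1 and Ppbp, but Igkc, Igha, Jchain and Iglv1 came almost wholly from 1 cell, and 98.4% of Psca and 98.7% of Ppbp from 1 cell each. Spink4, Mptx1 and Ccl6 followed.

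The third cluster, of 93 cells, was rich in Ly6a. Ly6a (chromosome 15, 74994877 to 74998031, minus strand) stood at 1716 CPM (1596 to 1842) there, and at 43.5, 49.3 and 123 CPM in the Kcne3-rich cells, the second and the fourth cluster. Of its UMIs in the third cluster 250 of 763 came from 1 cell, and without that cell the level was 1247 CPM. The leading genes were Ccl5, Ly6m, Clca4a, Fxyd4, Ly6g, Clca4b, Ly6a and Saa1, with all 62 UMIs of Ccl5 in 1 cell. They lead over the other wounded Rectum cells, and several were present without a wound. In normal Rectum cells Ccl5 and Ly6m had 0 UMIs, Clca4a 4, Clca4b 7, Ly6a 74, Ly6g 102, Fxyd4 135 and Saa1 308. Of these, 1 cell held 47 of Ly6g and 1 cell held 295 of Saa1. Saa1, an acute-phase protein of the mucosa, was at 1243 CPM against 21.4 CPM in the Kcne3-rich cells, and Lypd8, which binds flagella, at 15980.0 against 1480.0 CPM. Clu, clusterin, a gene of revival stem cells, was at 229 CPM (187 to 278), but 1 cell held 66 of 102 of these UMIs, and without it the level was 87.5 CPM. The 20 injury and regeneration genes summed to 23600.0 CPM, of which S100a6, a calcium-binding protein, made 19370.0, against 3343 CPM in the Kcne3-rich cells. The 2 richest cells held 4119 of the 10497 UMIs of the list in the third cluster, and without them it summed to 15981 CPM. The cells differed widely: the list took 0.745% of the UMIs of the median cell (quartiles 0.12 and 2.17%), against 0.3% in the Kcne3-rich cells, and less than 0.8% in 47 of the 93 cells.

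The 12 colonocyte genes summed to 2662 CPM in the third cluster, the highest sum of the 4, but they took 0.106% of the UMIs of its median cell against 0.151% in the second cluster. Krt20, the keratin of cells near the lumen, was at 492 CPM against 10.1 and 29 CPM in the Kcne3-rich cells and the second cluster, Car4, a brush border carbonic anhydrase, at 324 against 4.41 and 5.08, and Slc26a3, the chloride and bicarbonate exchanger, at 304 against 18.3 and 5.08. For Krt20, 93 of 219 UMIs in the third cluster came from 1 cell, and without it the level was 306 CPM. Kcne3 was at 11.2 CPM and Lgr5 at 0 UMIs. None of the 12 colonocyte genes was among the 10 leading genes and the median of 2690.0 UMIs was below the limit of 3359 UMIs set for naming, so the cluster was given no cell type name. Signs of RNA quality moved with it: 20.6% of UMIs were mitochondrial in the median cell, and Gm42418, which overlaps ribosomal RNA, was at 65590.0 CPM against 9655 CPM in the Kcne3-rich cells. Their part in the levels of this cluster was not tested.

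The fourth cluster, of 68 cells, carried collagen genes together with the rectum markers. It was led by Col3a1, Col1a1, Dcn, Col1a2, Eln, Sparc, Vim and Meg3, genes of connective tissue. Col3a1 stood at 1614 CPM (1461 to 1779), and at 3.78, 0.725 and 2.25 CPM in the Kcne3-rich cells, the second and the third cluster. Krt8 was at 1200.0 CPM, Epcam at 1316 and Spink4 at 2262 CPM in the same cluster, with 261 of 569 Spink4 UMIs in 1 cell (1320.5 CPM without it). After thinning, 93.2% (83.5 to 98.1) of its cells held a UMI of Col3a1 and 88.1% one of Krt8, so most cells held both. The 6 fibroblast genes summed to 3884 CPM, with Col3a1 the most abundant, while the 5 endothelial genes had 0 UMIs. The immediate-early genes Atf3 and Fos were at 227 and 855 CPM against 13.2 and 375 CPM in the Kcne3-rich cells. The sort excluded Pdgfra-positive cells by the study's methods, and the median cell had 3206 UMIs. Whether these are doublets, free RNA or cells expressing both was not tested.

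**Figure D2:**
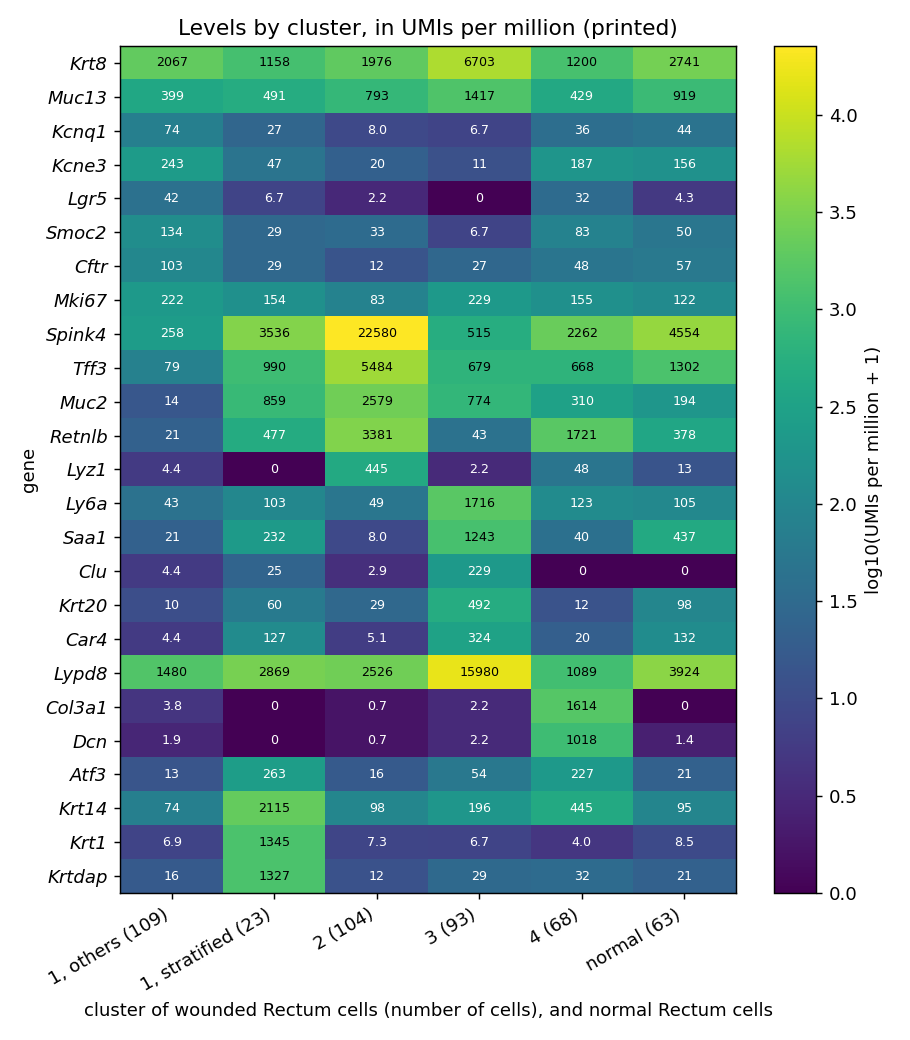
Levels in CPM (printed numbers, with the colour giving log10 of the level plus 1) of 25 genes (rows) in the clusters of wounded Rectum cells and in normal Rectum cells (columns, with the number of cells). Kcne3 and Lgr5 are highest in the 109 other cells of cluster 1, Spink4 in cluster 2, Ly6a in cluster 3, Col3a1 in cluster 4 and Krt14 in the stratified cells split from cluster 1.

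Goblet content was also counted per cell, as the share of cells with 2% or more of their UMIs in Muc2, Tff3, Fcgbp, Zg16, Clca1 and Spink4. This is a range of a score and not a cell type. Of the wounded Rectum cells 92 of 397 passed, or 23.2% (19.1 to 27.6), 77 of them in the second cluster and 11 in the third, and of the normal Rectum cells 11 of 63, or 17.5% (9.05 to 29.1). With 1 library per condition the 2 shares cannot be compared beyond counting error. Thinned to 2000 UMIs, 83 of 354 wounded and 10 of 60 normal cells passed. Between 1% and 4% lay 81 of the wounded and 9 of the normal cells, and 0 of the 3750 other named wounded cells passed, which allows up to 0.0983%.

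**Figure D3:**
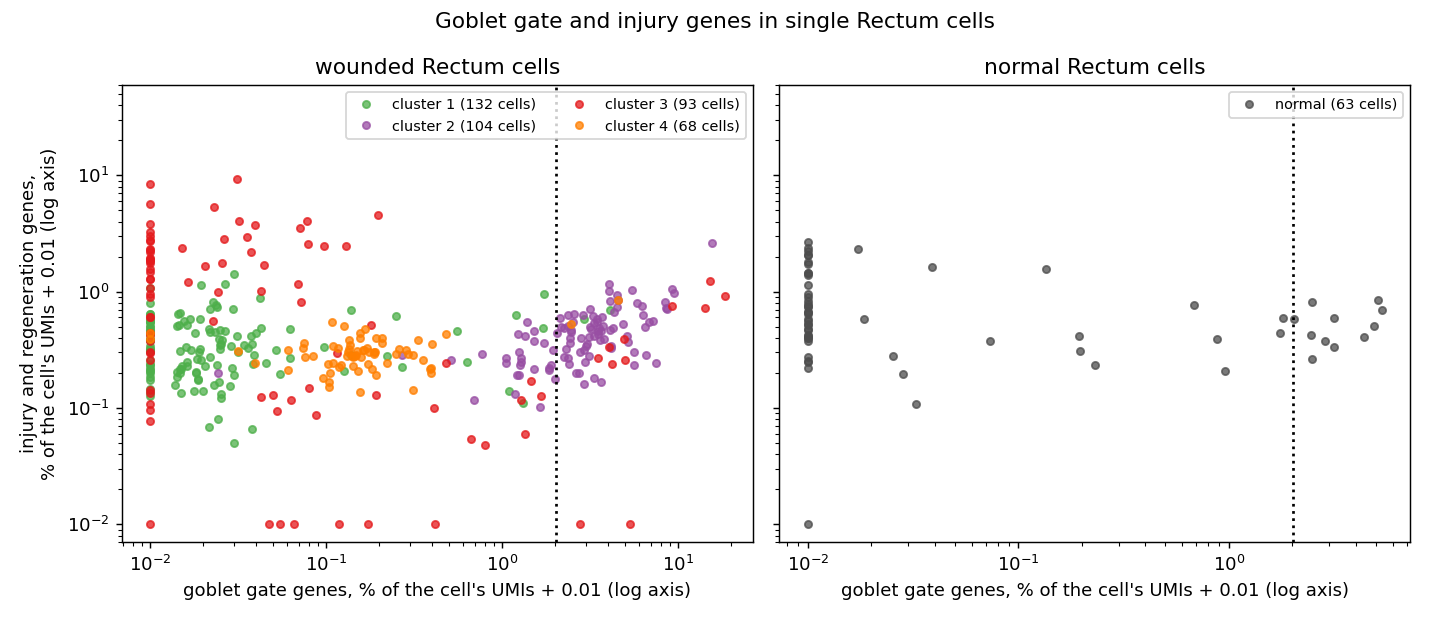
Each point is a cell, with the share of its UMIs in the 6 goblet genes (horizontal) and in the 20 injury and regeneration genes (vertical), both in percent plus 0.01 on log axes, for wounded Rectum cells by cluster (left) and normal Rectum cells (right). The dotted line is the 2% limit, which 92 of 397 wounded and 11 of 63 normal cells passed. Most cells of cluster 2 lie near or right of that line, and the highest injury shares at the left are cells of cluster 3.

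Wounded Rectum cells held the 4 markers of the tissue within 2-fold of normal Rectum cells. Krt8 was at 2386 against 2741 CPM, a log2 ratio of -0.20 (-0.27 to -0.13). Muc13 was at 653 against 919 CPM, a log2 ratio of -0.49 (-0.62 to -0.37), Kcne3 at 118 against 156 CPM, a log2 ratio of -0.40 (-0.70 to -0.09), and Kcnq1 at 37 against 44 CPM, a log2 ratio of -0.25 (-0.82 to 0.36). All 4 were lower by less than 2-fold, and for Kcnq1 the interval holds 0. Epcam, the adhesion protein used for the sort, was at 1822 against 1755 CPM, a log2 ratio of 0.05 (-0.03 to 0.14). Of the other simple keratins, Krt18 was at 924 against 575 CPM, Krt19 at 1399 against 2266 CPM and Krt20 at 74.2 against 98 CPM. Krt7, a keratin of ducts and of urothelium, was the only simple keratin past 2-fold, at 336 against 131 CPM, a log2 ratio of 1.36 (1.06 to 1.69), and 0.77 without the second cluster. It was lower in the other named wounded cells (-1.68).

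Over all genes, 6061 had 20 CPM or more in at least 1 of the 2 groups, and of these 486 (8.02%) were 2-fold or more higher in wounded and 409 (6.75%) lower, with a median log2 ratio of -0.06. A large part of this was also seen in the other named cells. Those cells differ in make-up between the libraries. In normal they are 432 Anal Canal, 257 Basal and 187 Suprabasal cells. In wounded they are 573 Basal, 1032 Suprabasal, 991 Regeneration, 838 Wound_Stress and 316 Hybrid cells. Ratios there can therefore hold differences of cell make-up as well as of library or wound, and their parts were not tested. Of the genes past 2-fold, 237 of the higher and 178 of the lower were past 2-fold the same way in the other named cells, and the genes with the largest ratios were mostly of that kind. Rps12, a ribosomal protein, was at 5180.3 against 95.1 CPM, a log2 ratio of 5.77 (5.42 to 6.14), with 5.82 in the other named cells, and Nme2 (6.64 and 6.22), Atp6v0c (7.37 and 11.46), Rpl27 (4.21 and 4.32), Lars2 (4.61 and 4.35) and Gm42418 (4.20 and 5.02) went the same way in both, Atp6v0c on 1 normal UMI in each (interval 4.89 to 12.68 in Rectum cells, and a bound of 5.78 without that cell). Rnasek had 0 UMIs in normal Rectum cells and 131 CPM in wounded ones. On the lower side, Gm11361, Gm10260, Rpl10-ps3, Rps27rt, Wdr89, Sprr2a1, Ptp4a1, Rpl9-ps6, Coro1b, Taf6l and Rnaset2a had log2 ratios from -6.29 to -3.42 in Rectum cells and were also past 2-fold lower in the other named cells. Several of these are pseudogenes or near-identical copies (Rpl10-ps3, Rpl9-ps6, Rps27rt), for which the counting can split reads between copies. The 2 libraries were counted against different gene references, and the part of this in the ratios was not tested.

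Without the 1092 genes past 2-fold in the other named cells, 4969 were left, of which 231 (4.65%) were higher and 207 (4.17%) lower. This filter was added after the data were seen. By the distance of the interval from 0, the higher genes were led by Hspa1a, Dcn, Fabp5, Sparc, Calm4, Lyz1, Lmo1 and Psca, and the lower by Chga, Slc6a14, Aldh1a1, Elovl5, Selenbp1, Knstrn, Cisd3 and Gsdmc2. Fabp5, a fatty acid carrier of squamous cells, was at 538 against 48.3 CPM, a log2 ratio of 3.48 (2.99 to 4.01), but without the 23 stratified-gene cells the ratio was 1.60. Slc6a14, an amino acid transporter of inflamed colon, was at 31.4 against 163 CPM, a log2 ratio of -2.38 (-2.75 to -2.00). Selenbp1, a selenium-binding protein of mature colonocytes, was at 80 against 259.9 CPM. Single cells decide some of these values. Of the Chga UMIs in normal Rectum, 16 of 17 came from 1 cell, and without it the ratio was -0.57. Of the Psca UMIs in wounded Rectum, 187 of 190 came from 1 cell, without which Psca has no ratio. Calm4 had 229 of 615 wounded UMIs in 1 cell (3.06 without it), and Dcn, Sparc, Lmo1 and Hspa1a had 1 normal UMI each. Without the 23 cells the ratios of Calm4 and Lmo1 were -0.57 and 3.21, and without the fourth cluster that of Sparc was 1.45.

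**Figure D4:**
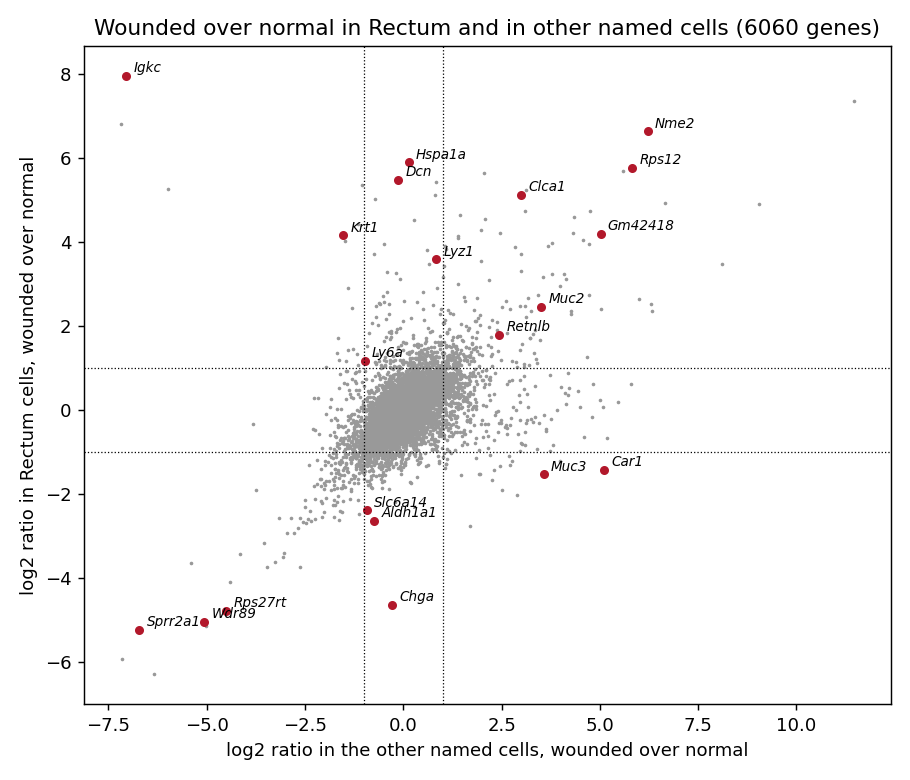
Log2 ratio of wounded over normal in Rectum cells (vertical) against the same ratio over the other named cells (horizontal) for the genes tested with a ratio in both, with dotted lines at 2-fold. Rps12, Nme2 and Gm42418 at the upper right and Rps27rt, Wdr89 and Sprr2a1 at the lower left lay on the same side in both, while Hspa1a, Dcn and Chga were past 2-fold in Rectum cells and within it in the other named cells.

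Several goblet genes were higher in wounded than in normal Rectum cells. Of the list 5 of 11 tested were 2-fold or more higher and 0 lower, with a median log2 ratio of 0.86 against -0.06 over all genes tested. Of all genes tested 8.02% were higher and 6.75% lower. Clca1, a secreted protease of mucus, was at 798 against 22.7 CPM, a log2 ratio of 5.13 (4.43 to 5.94). Zg16, a lectin that binds bacteria, was at 442 against 28.4 CPM, a log2 ratio of 3.96 (3.33 to 4.67), Fcgbp, a mucus scaffold, at 741 against 115 CPM, a log2 ratio of 2.69 (2.37 to 3.02), Muc2 at 1067 against 195 CPM, a log2 ratio of 2.46 (2.21 to 2.71) and Ccl6, a chemokine, at 657 against 222 CPM, a log2 ratio of 1.57 (1.34 to 1.81). For Zg16 1 cell held 844 of 1817 wounded UMIs and another 17 of 20 normal UMIs: the ratio was 3.07 without the first, 6.69 without the second and 5.80 without both. For Clca1 1 cell held 8 of 16 normal UMIs, and the ratio was 6.13 without it. These 5 were also past 2-fold higher in the other named wounded cells (from 1.56 to 4.72), at far lower levels there, between 2.6 and 14.6 CPM. Spink4 (8252 against 4554 CPM), Tff3 (2092 against 1302 CPM) and Agr2 (3596 against 2120.2 CPM) were higher by less than 2-fold, and Atoh1 was at 76.6 against 62.5 CPM with an interval that holds 0. Without the richest normal cell of each gene, Spink4 (1.11) and Tff3 (1.09) were past 2-fold and Agr2 (0.89) was not. Without the richest cell of each library the 3 ratios were 1.05, 0.94 and 0.85. Summed over the list the level was 17950.0 against 8829 CPM. The second cluster holds most of this sum, and without it the ratio of Muc2 was 0.64 and that of Fcgbp 1.06.

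Among the 8 mucosal defence genes tested 3 were higher and 1 lower, against 8.02% higher and 6.75% lower over all genes tested. Retnlb was at 1304 against 378 CPM, a log2 ratio of 1.79 (1.61 to 1.97), with 139 of 266 normal UMIs in 1 cell, without which the ratio was 2.83. Lcn2, an iron-sequestering protein of inflamed epithelium, was at 50.4 against 2.84 CPM, a log2 ratio of 4.15 (2.28 to 7.20), which rests on 2 normal UMIs and was 2.81 without the 23 stratified-gene cells. Ang4 was at 83.7 CPM against 0 UMIs, a log2 ratio of at least 4.30 by the 3-UMI bound. Saa1 was at 173 against 437 CPM, with 295 of its 308 normal UMIs in 1 cell, and without the richest cell of each library its ratio was 3.09. Lyz1, outside the list, was at 154 against 12.8 CPM, a log2 ratio of 3.59 (2.66 to 4.73), with 6 of 9 normal UMIs in 1 cell and 5.15 without it. Without the second cluster the ratios of Retnlb, Lyz1 and Ccl6 were -0.56, -0.80 and -1.21. Lypd8 (3528 against 3924 CPM, with a ratio of 0.19 without its richest normal cell) and Pigr (1062 against 1524 CPM), the receptor that carries IgA into the lumen, were lower by less than 2-fold, and the summed level of the list was 6273 against 6305 CPM. Without the richest cell of each library that sum was 5962 against 5062 CPM.

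Colonocyte genes were lower in wounded Rectum cells by summed counts, and a few normal cells decide this. Of 11 tested 5 were 2-fold or more lower and 0 higher, with a median of -0.91, against 6.75% lower and 8.02% higher over all genes tested. Car1, a carbonic anhydrase of colonocytes, was at 82.5 against 222 CPM, a log2 ratio of -1.43 (-1.70 to -1.14), and without the normal cell that held 69 of 156 UMIs the ratio was -0.61. One wounded cell held 102 of 339 Car1 UMIs, and without the richest cell of each library the ratio was -1.12, past 2-fold. Slc26a3 was at 56.7 against 132 CPM, a log2 ratio of -1.22 (-1.57 to -0.86), with 25 of 93 normal UMIs in 1 cell and -0.78 without it. Guca2a, which encodes guanylin, was at 497 against 1058 CPM, a log2 ratio of -1.09 (-1.21 to -0.97), with 146 of 745 in 1 cell and -0.79 without it. Car4 was at 53.5 against 132 CPM, but all 93 normal UMIs came from 1 cell, and its ratio of -1.30 turned to at least 3.62 without that cell. Aqp8, a water channel, was at 35.8 against 63.9 CPM (-0.84), with 44 of 45 normal UMIs in 1 cell, and without it the ratio turned to 4.63 on 1 normal UMI. Of the 5 genes past 2-fold, Cyp2c55, a cytochrome of the upper crypt, was the only one still past 2-fold without its richest normal cell, at 13.4 against 49.7 CPM with 14 of 35 normal UMIs in that cell (-1.89 with it and -1.17 without it). Guca2b, for uroguanylin, was at 116 against 93.7 CPM, and Krt20 was not past 2-fold. The summed level was 1100.0 against 2082 CPM, but 4 normal cells held 766 of the 1466 UMIs. Without the 4 richest cells of each library it was 1015 against 1056 CPM. The median cell held 0.0696% of its UMIs in the list in wounded and 0.0811% in normal Rectum.

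Of 18 ion and water transport genes 6 were 2-fold or more lower and 1 higher (median -0.37), the 6 including Car1, Car4 and Slc26a3 named above. Over all genes tested 6.75% were lower and 8.02% higher. Car2, the cytosolic carbonic anhydrase, was at 399 against 834 CPM, a log2 ratio of -1.06 (-1.20 to -0.93), and also lower in the other named cells (-1.89), with -0.93 without its richest normal cell. Slc5a8, a sodium-coupled butyrate carrier, was at 50.1 against 122 CPM, a log2 ratio of -1.28 (-1.65 to -0.90), and Slc16a1, another carrier of short acids, at 41.4 against 93.7 CPM, a log2 ratio of -1.18 (-1.60 to -0.75). Slc12a2, the cotransporter that loads cells with chloride for secretion, was at 509 against 231 CPM, a log2 ratio of 1.14 (0.91 to 1.37), with -0.03 in the other cells and 0.45 without the second cluster. Cftr (52.8 against 56.8 CPM) and the sodium pump subunit Atp1b1 (906 against 834 CPM) had intervals that hold 0. Of 15 junction genes 3 were higher and 2 lower, with Cldn4 at 30.9 against 5.68 CPM on 4 normal UMIs and Cldn15, which forms cation pores, at 40.9 against 17 CPM (1.26, and 0.24 without the second cluster). Of the lower ones, Cldn8 was at 16.3 against 48.3 CPM and Cldn23 at 9.97 against 21.3 CPM (-1.09, and -0.91 without its richest normal cell).

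Of the mucins outside the goblet list, Muc3, a mucin of the brush border, was at 374 against 1076 CPM, a log2 ratio of -1.53 (-1.65 to -1.40), the lowest ratio of the list. Muc4, another surface mucin, was at 28.5 against 11.4 CPM. The gel-forming Muc5ac and Muc5b of airway and stomach had 0 UMIs in wounded Rectum cells.

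Of 9 crypt stem genes tested 1 was 2-fold or more higher and 0 lower, and the median was 0.003. Of all genes tested 8.02% were higher and 6.75% lower. Rnf43, a Wnt target that removes Wnt receptors, was at 43.5 against 21.3 CPM, a log2 ratio of 1.03 (0.27 to 1.90), and at 0.98 without its richest wounded cell. Sox9, a factor of the crypt base, was at 116 against 61.1 CPM, and Smoc2 at 71.8 against 49.7 CPM. Lgr5 did not reach the filter, at 19.5 CPM (15.4 to 24.2) against 4.26 CPM (0.879 to 12.4) with 3 normal UMIs. Of 10 cycling genes 3 were lower and 0 higher (median -0.60): Birc5, survivin, at 68.1 against 145 CPM, a log2 ratio of -1.09 (-1.42 to -0.75), Ccnb1 at 21.2 against 68.2 CPM, a log2 ratio of -1.69 (-2.21 to -1.15) and Ccnb2 at 46 against 104 CPM, the B-type cyclins of mitosis. Mki67 was at 165 against 122 CPM. Without the richest normal cell of each gene, Birc5 (-0.85) and Ccnb2 (-0.96) were within 2-fold. The cycling genes summed to 691 against 914 CPM, and to 604 against 544 CPM without the 4 richest cells of each library.

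Of the injury and regeneration genes, 6 of 11 tested were 2-fold or more higher in wounded Rectum cells, with 0 lower and a median of 1.18. Over all genes tested 8.02% were higher and 6.75% lower, with a median of -0.06. Ly6a was at 238 against 105 CPM, a log2 ratio of 1.18 (0.84 to 1.54), and lower in the other named cells (-0.98). Without thinning, a UMI of Ly6a was found in 136 of 397 wounded and 20 of 63 normal Rectum cells, which are similar shares. Hbegf, an EGF-family ligand, was at 60.8 against 17 CPM, a log2 ratio of 1.84 (1.01 to 2.81) and Anxa5, which binds phosphatidylserine, at 70.1 against 27 CPM, a log2 ratio of 1.38 (0.71 to 2.13). Clu was at 30.2 CPM against 0 UMIs and Sprr1a, a cornified envelope precursor also used in fetal-like epithelium, at 61.6 against 7.1 CPM, with 53.2% and 59.3% of their wounded UMIs in 1 cell each. Without those cells the ratios were 1.74, again a bound, and 1.83. The third cluster decided the value of Ly6a, which without it was -0.85, and 1 wounded cell held 250 of 977 UMIs, without which the ratio was 0.76. The summed level went the other way from the median, 6241 against 6900.0 CPM, and S100a6, at 5021 against 5890.4 CPM, makes up most of it. The list took 0.33% of the UMIs of the median wounded Rectum cell and 0.572% of the median normal one.

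Of 15 immediate-early genes 6 were higher and 1 lower, against 8.02% higher and 6.75% lower over all genes tested. Jun was at 791 against 234 CPM, a log2 ratio of 1.75 (1.53 to 1.99), Ier3 at 57.2 against 7.1 CPM, a log2 ratio of 3.01 (1.77 to 4.65), Atf3 at 58.9 against 21.3 CPM, a log2 ratio of 1.47 (0.72 to 2.33) and Fosb at 117 against 44 CPM, a log2 ratio of 1.40 (0.88 to 1.98), and these 4 were past 2-fold higher in the other named cells too (1.39, 1.39, 1.38 and 1.89). For Atf3 1 cell held 7 of 15 normal UMIs, and the ratio was 2.34 without it, but it was 0.67 without the 23 stratified-gene cells. Dusp1, a phosphatase of MAP kinases, was at 64.2 against 29.8 CPM with -0.70 in the other cells, and its ratio of 1.11 was 0.91 without its richest wounded cell. Btg2 was at 276 against 138 CPM. Zfp36, which destabilizes cytokine mRNA, was at 38.7 against 96.6 CPM, a log2 ratio of -1.32 (-1.74 to -0.89), and Junb (161 against 200.2 CPM) and Fos (401 against 430.3 CPM) were within 2-fold. Of 9 heat shock genes 3 were higher and 1 lower. Hspa1a and Hspa1b, the inducible Hsp70 pair, had 1 UMI each in normal Rectum cells and 85.1 and 71.5 CPM in wounded ones, ratios of 5.91 (3.42 to 11.21) and 5.65 (3.17 to 10.96), and they are near-identical copies whose reads may be split. Hspb1 was at 40.6 against 7.1 CPM (2.52, and 1.57 without the 23 cells), the mitochondrial chaperonin Hspe1 at 152 against 322 CPM and the constitutive Hspa8 at 1312 against 1261 CPM. Immediate-early and heat shock genes also respond to tissue dissociation, and each condition is 1 library, so wound and handling cannot be told apart.

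Of 7 MHC class I genes 1 was past 2-fold, B2m, the light chain, at 142 against 351 CPM, a log2 ratio of -1.30 (-1.52 to -1.08), and it was lower still in the other named cells (-2.38). For comparison, 8.02% of all genes tested were 2-fold or more higher and 6.75% lower. The heavy chain H2-K1 was at 466 against 317 CPM. Of the MHC class II genes only Cd74, the invariant chain, passed the filter, at 32.4 against 14.2 CPM, a log2 ratio of 1.19 (0.26 to 2.28), and without the 1 cell richest in Igkc the ratio was -0.026. Ifitm3, an interferon-induced membrane protein, was at 266 against 79.5 CPM, a log2 ratio of 1.74 (1.35 to 2.16) and was the only one of 4 interferon response genes past 2-fold, with 0.48 without the first cluster. Of 3 chemokines and cytokines tested, Ccl28, a mucosal attractant of IgA cells, was lower at 27.7 against 63.9 CPM, a log2 ratio of -1.20 (-1.71 to -0.67), and Il1a and Il1b had 0 UMIs.

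Stratified genes were higher in wounded Rectum cells, and these values rest on the 23 cells described above. Of 6 basal genes tested 5 were higher (median 1.44) and of 4 suprabasal genes 3 (2.32), against 8.02% of all genes tested. Krt14 was at 340.4 against 95.1 CPM, a log2 ratio of 1.84 (1.48 to 2.21), Krt17 at 134 against 36.9 CPM, a log2 ratio of 1.86 (1.29 to 2.49), Krt1 at 153 against 8.52 CPM, a log2 ratio of 4.16 (3.03 to 5.62) and Krt10 at 118 against 35.5 CPM, a log2 ratio of 1.73 (1.15 to 2.37). Without the 23 cells the ratio was -0.32 for Krt1, -1.16 for Krt10, -0.17 for Krt5, -0.11 for Krt15, -0.75 for Krt6a and -0.31 for Krtdap, and it was 0.37 for Krt14 and 0.10 for Krt17. In the other named cells of the same libraries these genes were lower in wounded (-0.88 for Krt14, -0.36 for Krt17, -1.53 for Krt1). Those cells differ in make-up between the libraries, with cells named Anal Canal in normal only. Without the single wounded cell richest in each gene, the ratios were 3.39 for Krt1, 1.13 for Krt10 and 0.37 for Krt6a (1.17 with it). A UMI of Krt14 was found after thinning in 25.1% (20.7 to 30) of wounded and 21.7% (12.1 to 34.2) of normal Rectum cells. The squamous transcription factors did not reach the filter, at a summed 50.1 against 4.26 CPM.

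Other genes that the study followed at the junction were low in these cells. Il33, an alarmin, was at 16.1 against 5.68 CPM, Nectin4, an adhesion protein, at 11.7 against 7.1, Cd34 at 1.95 and Gpc3, a glypican, at 5.6 CPM against 0 UMIs each, while the other named wounded cells held 78.3, 37.2, 4.2 and 18.3 CPM. Itga6, a laminin receptor chain, was at 133 against 138 CPM.

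Markers of other cell types were set beside these results. All 4 fibroblast genes tested were higher, against 8.02% of all genes tested. Col3a1 was at 101 CPM against 0 UMIs, Col1a1 at 42.6 CPM against 0 UMIs and Dcn at 63.5 against 1.42 CPM, a log2 ratio of 5.48 (2.99 to 10.79). Without the fourth cluster the ratio of Dcn was -0.13, and Col3a1 lay under the bound of the normal cells. The 8 immune genes summed to 24 UMIs in 397 cells and to 0 in normal Rectum, with Fcer1g the most abundant and Cd3e at 0. Of these UMIs 11 were in the second cluster (7.98 CPM), 10 in the third (22.5 CPM), 3 in the fourth (11.9 CPM) and 0 in the first. The 5 endothelial genes summed to 5 UMIs against 3, with Kdr and Emcn at 0, the 5 smooth muscle genes to 36.2 against 8.52 CPM, Acta2 the most abundant in wounded, and the 8 tuft genes to 53 UMIs against 1, with Il25 at 0. Of the 149 wounded UMIs of the smooth muscle genes 65 came from 1 cell (20.5 CPM without it) and 99 from the fourth cluster. The 10 enteroendocrine genes summed to 42.1 against 109 CPM, with Cpe the most abundant in wounded Rectum and Neurod1 and Scgn at 0. Of the 77 normal UMIs 61 came from 1 cell, 50 of the 63 normal cells held none, and without the richest cell of each library the sums were 33.7 and 23.2 CPM.

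Most genes of regional identity and metabolism were within 2-fold, as were most of all genes tested, with 8.02% higher and 6.75% lower. Of 12 intestinal transcription factors 2 were 2-fold or more higher, Ehf, an ETS factor of epithelia, at 265 against 114 CPM, a log2 ratio of 1.22 (0.90 to 1.57), and Foxa3 at 84.7 against 41.2 CPM, a log2 ratio of 1.04 (0.49 to 1.64), with 0.95 for Ehf without the first cluster and 0.24 for Foxa3 without the second. Cdx1 was at 183 against 361 CPM, a log2 ratio of -0.98 (-1.18 to -0.76) and Klf5, a factor of proliferating crypt cells, at 399.7 against 669 CPM, both within 2-fold. Of 7 posterior Hox genes 1 was past 2-fold, Hoxd11 at 72 against 35.5 CPM (1.02, and 0.99 without its richest wounded cell), and Hoxb13, the most posterior of its cluster, was at 331 against 547 CPM (-0.72, -0.89 to -0.56). Glycolysis had 0 of 12 genes past 2-fold (median -0.22), with Gapdh at 387 against 709 CPM. Fatty acid oxidation had 1 of 11 higher, Hadha, at 154 against 72.4 CPM, which was also higher in the other cells (1.40), and cholesterol synthesis 1 of 12 lower, Lss, lanosterol synthase, at 11.9 against 34.1 CPM. Of 11 detoxification genes 2 were lower, Gsto1 at 216 against 466 CPM, a glutathione transferase also lower in the other cells (-1.71), and Aldh1a1, a retinal dehydrogenase, at 3.89 against 24.1 CPM, a log2 ratio of -2.63 (-3.71 to -1.56). Gpx2, the glutathione peroxidase of the gut and the most abundant of the list, was at 1286 against 1287 CPM.

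**Figure D5:**
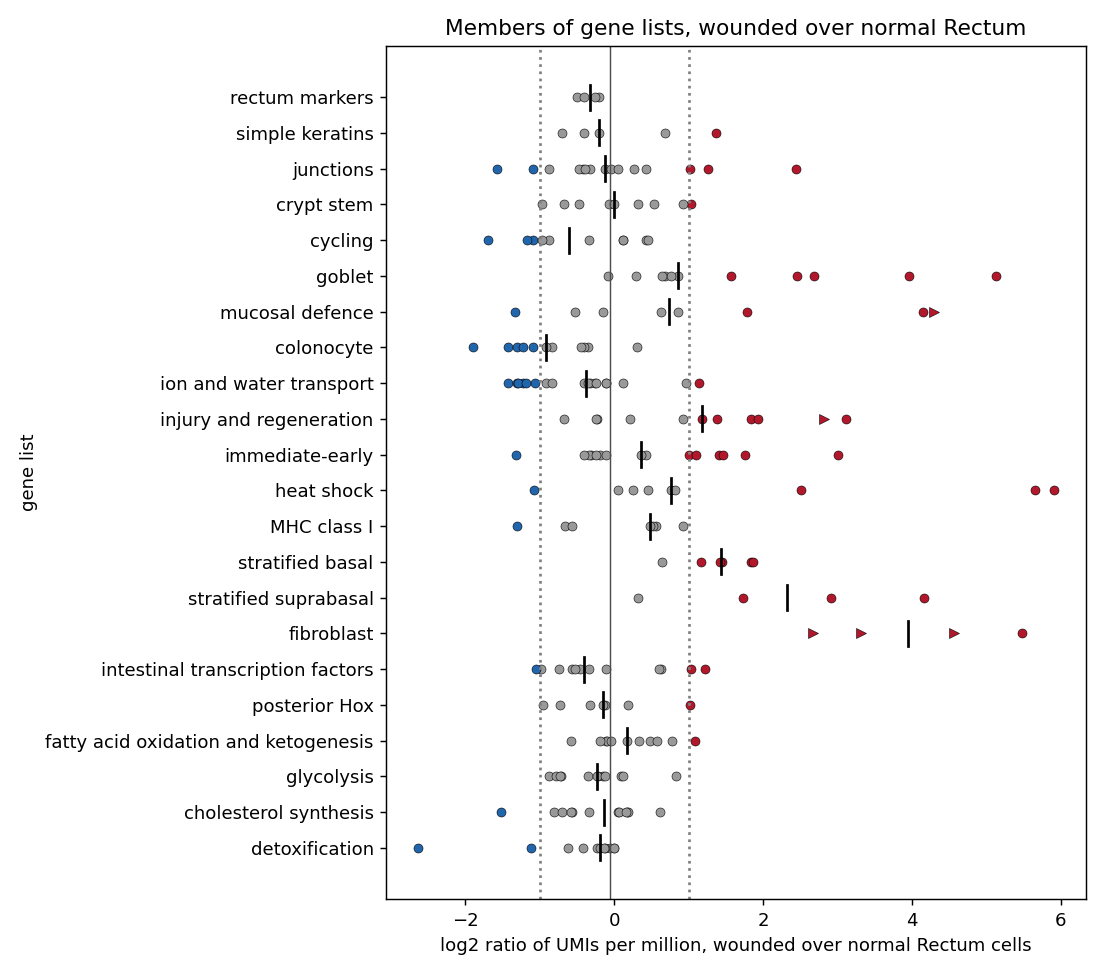
Log2 ratio of wounded over normal Rectum cells (horizontal) for each member of 22 gene lists (rows) that passed the filter, with triangles for bounds against 0 UMIs. Black bars are list medians, dotted lines 2-fold, the thin line the median of all genes tested, and red and blue points lie past 2-fold. Red points include 5 of 11 goblet, 6 of 11 injury and all 4 fibroblast members, blue points 5 of 11 colonocyte members, and all 12 glycolysis members lie within 2-fold.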

How the data were processed

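Both libraries were 10x single-cell libraries, counted by the authors with Cell Ranger (version 3.1.0 per the submitters' processing notes, with a file header of 4.0.0 for the wounded library) on mm10. The deposited matrices hold whole-number counts of UMIs per gene and barcode, not normalized, and they gave all levels and ratios. The deposited cell tables hold values on a natural log scale, ln(1 + x) with x whole, and list the cells that the authors kept in Seurat 3.2.2 (more than 200 and fewer than 5000 genes, under 25% mitochondrial UMIs), and they gave the names of the cells and 1 alternative.

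For each group of cells the UMIs of a gene were added up and divided by the group's total (Python 3.11.15, numpy 2.4.6, pandas 2.3.3, scipy 1.17.1). Ratios carry exact binomial intervals, levels exact Poisson intervals and shares Clopper-Pearson intervals, at 95%. Reads are collapsed to UMIs, but cells and mice add spread that no interval covers. A gene was tested for the 2-fold limit with 20 CPM or more in at least 1 group, and the calculation was checked on data with known answers. No model was fitted and no p-value computed, since each condition is 1 library. Clusters came from Seurat 5.3.0 in R 4.3.3 (2000 variable features, 10 components, resolution 0.2, cell-cycle scores regressed).

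The genes named were the markers and genes of the study, the 12 genes with the largest lower bound over the other wounded cells (100 UMIs or more), the 12 genes in each direction with the interval farthest from 0 between libraries, and the 8 leading genes of each cluster (50 UMIs or more). Members of gene lists were named beside them after their values were seen, and the members, lists and limits were chosen with earlier results of these data known. Some list members are not reported here.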

Additional observations from a re-analysis of the deposited data

Results flagged for a closer look

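For 6 genes the ratio of wounded over normal in Rectum cells was past 2-fold one way and that in both Basal and Suprabasal cells the other way, and the difference was not tested. Igkc was higher in Rectum (7.96) and lower in Basal (-4.67) and Suprabasal (-4.11), and Igha likewise (6.81, with at most -3.59 by the 3-UMI bound in Basal and -3.23 in Suprabasal). Nearly all UMIs of both in wounded Rectum came from 1 cell.

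Car1 (-1.43), Muc3 (-1.53), Car4 (-1.30) and Slc26a3 (-1.22) were lower in wounded Rectum cells and higher in wounded Basal and Suprabasal cells. Without the normal Rectum cell richest in each gene, the Rectum ratios were -0.61 for Car1 (-1.12 without the richest wounded cell as well), at least 3.62 for Car4, which then had 0 normal UMIs, and -0.78 for Slc26a3. In those cells the wounded levels were between 4.01 CPM, for Car1 in Basal, and 16.7 CPM, for Slc26a3 in Suprabasal, and the normal groups held 7 UMIs of each or fewer.

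Outside the deposited cell table, 8972 barcodes of the wounded library had 25% or more mitochondrial UMIs. Of these 2196, or 24.5%, held 3 or more UMIs and 0.1% or more of their UMIs in the 4 rectum markers. In the normal library 92 of 460 such barcodes did, or 20%, and among the named wounded Rectum cells 349 of 397 did, or 87.9%. Of the named wounded Hybrid cells 38 of 316 did, or 12%. The barcodes outside the table enter no comparison here.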

How the results depend on the processing

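No paired analysis was possible because each condition is 1 library and no result comes from a test. The intervals cover counting error only, and the 63 normal cells limit most ratios. The number of genes past 2-fold was 486 higher and 409 lower. It was 196 and 212 at 50 CPM, 1347 and 1705 with no filter, and 178 and 104 past 3-fold, and it was 734 higher with the mean of per-cell CPM. Subtracting the ratio in the other named cells gave 302 higher, and leaving out the genes past 2-fold there gave 231 and 207, both added after the data were seen. The higher genes were 54.3% of those past 2-fold, 65.5% after centring on the median of genes with 50 CPM or more in both groups (-0.10), 39.2% after the subtraction and 44.1% with no filter. The share of cells past the goblet limit was 31% in wounded at a limit of 1% and 6.05% at 5%, and 3.17% in normal at 5%. The counts over the other wounded cells, and the number of clusters, stayed within 1.5 times. Of the named genes past 2-fold, those still past it the same way were 37 of 65 after the subtraction, 72 of 97 without the second cluster, 81 of 100 without the first, 81 of 96 with the deposited values and between 86 of 100 and 100 of 100 in the 12 other settings for single genes. The ratio moved out of its interval for 53 of 132 without the first cluster, 48 of 85 after the subtraction, 42 of 132 in cells under 10% mitochondrial UMIs and 38 of 129 without the second cluster. Without the cell of each library with the most UMIs of the gene, 88 of 100 stayed past 2-fold the same way. Leaving out that cell in wounded, in normal or in both put 19 of the 100 within 2-fold, out of direction or without a ratio in at least 1 case, and moved 30 by over 1.5 times.

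These ratios, past 2-fold with all cells, turned direction, all wounded over normal Rectum unless said otherwise. After subtracting the ratio in the other named cells, the log2 ratios were Atp6v0c -4.08, B2m 1.08, Car2 0.83, Coro1b 0.73, Fosb -0.48, Gm10260 1.24, Gm11361 0.0519, Gm42418 -0.82, Gsto1 0.60, Hadha -0.31, Ptp4a1 0.32, Rpl27 -0.11, Rps12 -0.0578 and Wdr89 0.021. Without the 10% of cells richest in stratified keratins, the log2 ratios were Calm4 -0.78, Krt1 -0.58, Krt10 -1.18, Krt15 -1.64, Krt17 -0.16, Krt5 -0.72, Krt6a -1.94 and Krtdap -0.78. Without the 23 stratified-gene cells, the log2 ratios were Calm4 -0.57, Krt1 -0.32, Krt10 -1.16, Krt15 -0.11, Krt5 -0.17, Krt6a -0.75 and Krtdap -0.31. Without cluster 1, the log2 ratios were Calm4 -0.24, Krt1 -0.34, Krt10 -1.20, Krt15 -1.63, Krt5 -0.37, Krt6a -0.24 and Krtdap -0.26. With the mean of per-cell CPM, the log2 ratios were Car4 0.16, Cd74 -0.0676 and Krt6a -0.0212. In cells under 10% mitochondrial UMIs, the log2 ratios were Car4 at least 1.75 and Saa1 2.45. Without cluster 2, the log2 ratios were Ccl6 -1.21, Igkc -3.96, Lyz1 -0.80 and Retnlb -0.56. Without the 10% of cells with the most UMIs, the log2 ratios were Cd74 -0.46 and Krt6a -0.32. Without the cell with the most Igkc, the log2 ratios were Cd74 -0.026 and Igkc -4.54. Without cluster 4, the log2 ratio was Dcn -0.13. With the deposited values, the log2 ratio was Krt6a -0.0917. Without cluster 3, the log2 ratio was Ly6a -0.85. Over the other wounded cells, with the mean of per-cell CPM, the log2 ratio was Cd34 0.29. Without the cell of each library with the most UMIs of the gene, the log2 ratios were Car4 at least 3.43 and Saa1 3.09. Of the named genes within 2-fold, Aqp8 turned from -0.84 to 4.41 in that setting, and Cftr, Fos, Gpx2 and Lypd8, all near 0, turned to 0.09 or less. Leaving out a cluster, the 23 cells, the keratin-rich cells or the Igkc cell removes cells that hold most UMIs of these genes by construction, and for the others the cause was not tested. The values of Car4 given as at least are bounds, since normal Rectum then held 0 of its UMIs. Without the fourth cluster Col3a1 lay under the bound of the normal cells and has no ratio. The alternatives without single clusters, without the 23 cells, without the Igkc cell, without the richest cells of a gene, list or cluster and with 2000 UMIs or more were added after the data were seen.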
